A study of Schizosaccharomyces pombe with 9 samples.

Results

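The transcript profile of fission yeast without *sgf73*+ was set directly against that of fission yeast without *ash2*+, array against array. *sgf73*+ encodes a subunit of the SAGA complex and *ash2*+ a subunit of the Set1 complex, and the comparison asks how the loss of these chromatin-modifying complexes differs. The genes were those *S. pombe* genes that have a probe set with 1 gene symbol in the array annotation, 2899 genes in all, and 2878 of them were measured, which means above background on at least 1 of the 2 arrays. The series holds 9 arrays, of which 2 made the comparison, 6 arrays of other deletions (labelled *sec65*Δ, *pab1*Δ, *meu29*Δ, *SPAC27D7.08c*Δ, *SPAC3F10.17*Δ and *SPBC2A9.02*Δ) gave context, and the wild type array entered no ratio. The *sgf73*Δ array is titled as a deletion of *sgf73*+ and the *ash2*Δ array as a deletion of ash2. Both strains grew exponentially, at an OD600 between 0.5 and 1.0, with no DNA damage reagent or other treatment, and the deletion strains of the study came from a commercial haploid library. The sources used here give neither the strain background nor the mating type. A single array per genotype leaves no replicate error, so that ratios and counts were given without a test, and a difference between the strains cannot be told apart from one between their cultures, RNA preparations or arrays.

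SAGA is a large coactivator complex that acetylates histone H3 through Gcn5, removes ubiquitin from histone H2B through Ubp8, and contacts the TATA-binding protein at promoters. In budding yeast, Sgf73 anchors the deubiquitination module to the rest of the complex. The Set1 complex, also called COMPASS, methylates histone H3 on lysine 4 at transcribed genes, and Ash2 is one of its core regulatory subunits. In fission yeast, SAGA is known for its part in the switch to sexual differentiation under starvation, and the Set1 complex is known both for a mark of active genes and for repression of some stress-regulated, subtelomeric and repeated sequences.

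The deleted genes were the first check of the labels. The log2 signal of *sgf73*+ was 6.38 in *sgf73*Δ and 11.40 in *ash2*Δ, which is 32.4-fold lower in *sgf73*Δ, while the other 6 deletions lay between 11.05 and 11.53. The log2 signal of *ash2*+ was 10.51 in *sgf73*Δ and 4.98 in *ash2*Δ, where it was not above background, so that it was at least 37.1-fold higher in *sgf73*Δ. The other 6 deletions lay between 9.81 and 10.49 for *ash2*+. Each of these transcripts was thus low on the array labelled as its deletion and on no other deletion array. Among the arrays given for context, those of 2 further deletions kept a clear signal of their own gene. *pab1*+ had 10.19 on the array labelled *pab1*Δ and 10.57 to 11.02 on the other 7 deletion arrays, and *sec65*+ had 11.38 on the array labelled *sec65*Δ and 11.76 to 12.38 on the other 7.

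The strains differed widely. Of the 2878 measured genes, 113 had at least 2 times the signal in *sgf73*Δ that they had in *ash2*Δ, which is 3.93% of the genes, and 87 genes or 3.02% had at most 0.5 times the signal. Together 200 genes, 6.95% of those measured, lay past 2-fold. A 4-fold difference was reached by 26 genes in the higher direction and 13 in the lower, and an 8-fold difference by 11 and 3. The log2 ratio of *sgf73*Δ over *ash2*Δ had a median of 0.05 over all measured genes and an SD of 0.62, and 79.6% of the genes lay within 1.5-fold. This ratio was above 0 for 1590 of the measured genes and below 0 for 1288. The highest ratios belonged to *map2*+, the deleted *ash2*+, *ght3*+, *mug14*+, *fbp1*+ and *isp3*+, and the lowest to the deleted *sgf73*+, *inv1*+, *gal7*+, *cao2*+ and *mug108*+. Just inside the threshold were *mrpl28*+, with 2.002 times the signal, and *gyp1*+ and *cut15*+, with 0.4996 times each, and just outside it were *mgm101*+ with 1.999 times and *num1*+ with 0.5005 times.

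Among the 28 pairs that the 8 deletion arrays can form, the number of genes past 2-fold ran from 2 between those labelled *pab1*Δ and *sec65*Δ to 227 between *meu29*Δ and *SPAC27D7.08c*Δ. The 200 genes between *sgf73*Δ and *ash2*Δ came second, together with the 200 between *sgf73*Δ and *SPAC27D7.08c*Δ. *sgf73*Δ was not close to any other deletion, with at least 86 genes past 2-fold (against *meu29*Δ), whereas *ash2*Δ had 25 genes past 2-fold against the array labelled *pab1*Δ and 37 against that labelled *sec65*Δ. These pairs share arrays and are given as a description.

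The place of the 2 arrays among the other 6 deletions shows which of them departed. Over all measured genes, the *sgf73*Δ signal lay outside the range of the other 6 deletions for 1158 genes (40.2%), and the *ash2*Δ signal for 835 genes (29.0%). For the 113 genes that were higher in *sgf73*Δ, *sgf73*Δ lay above all 6 for 71 (62.8%, beside 21.0% of all measured genes). *ash2*Δ lay below all 6 for 83 of them (73.5%, beside 18.4%). Both held at once for 53 (46.9%), and both arrays lay outside in any direction for 13.8% of all measured genes. For the 87 lower genes, *sgf73*Δ lay below all 6 for 64 (73.6%, beside 19.2% of all measured genes) and *ash2*Δ above all 6 for 31 (35.6%, beside 10.6%). By distance from the median of the other 6, *sgf73*Δ was farther than *ash2*Δ for 63 of the higher genes (55.8%). It was farther for 77 of the lower genes (88.5%) and for 65.3% of all measured genes. The genes were chosen by the same signals, so that these shares describe the called genes and support nothing further. The higher genes thus lay at the low end in *ash2*Δ somewhat more often than at the high end in *sgf73*Δ, and the lower genes lay more often at the low end in *sgf73*Δ than at the high end in *ash2*Δ.

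Some array properties moved with the comparison, and their part in it was not tested. The 18 hybridisation control probe sets (bioB, bioC, bioD and cre) were all brighter on the *sgf73*Δ array, by a median of 0.36 log2 units. The labelling controls had a median difference of -0.03 over 23 probe sets, and the 3 *act1* control probe sets one of 0.04. The log2 gap between the 3′ and 5′ control probe sets of *gpd3*+ was 1.70 in *sgf73*Δ, 0.55 in *ash2*Δ and between 0.37 and 0.62 in the other 6 deletions, while for *act1*+ it was -0.02 in *sgf73*Δ and 0.03 in *ash2*Δ. For *rip1*+ it ran the other way, with 0.43 in *sgf73*Δ, 0.59 in *ash2*Δ and 0.49 to 0.65 in the other 6, for *srb4*+ it was -0.21 in *sgf73*Δ and -0.48 in *ash2*Δ, and for the TFIID control 0.61 in *sgf73*Δ and 0.62 in *ash2*Δ. Of the 113 higher genes, 67 were in the fifth of the genes with the lowest mean signal, where the median log2 ratio was 0.15, and 0 were in the fifth with the highest signal, where 18 genes were lower.

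Transcripts of the other SAGA subunits stayed mostly close between the strains. Apart from *sgf73*+, 17 genes of SAGA subunits were measured, with a median log2 ratio of -0.03 (0.05 over all measured genes), 1 past 2-fold higher and 1 past 2-fold lower. Over all measured genes, 3.93% were past 2-fold higher and 3.02% lower. *sus1*+, whose product sits with Ubp8 in the deubiquitination module, had a log2 signal of 11.23 in *sgf73*Δ and 10.01 in *ash2*Δ, 2.32-fold higher in *sgf73*Δ, with the other 6 deletions between these values, from 10.21 upward to 10.75. *ada1*+, which encodes a structural subunit, had 10.69 in *sgf73*Δ and 11.80 in *ash2*Δ, 2.16-fold lower in *sgf73*Δ, again with the other 6 between, at 11.01 to 11.69. Among the catalytic subunits, the acetyltransferase gene *gcn5*+ had 10.12 in *sgf73*Δ and 9.28 in *ash2*Δ, a ratio of 1.80 that did not reach 2-fold, and the deubiquitinase gene *ubp8*+ had 9.83 in *sgf73*Δ and 9.75 in *ash2*Δ. The structural genes *spt7*+ and *spt20*+ had log2 ratios of -0.28 and -0.09, and *spt8*+ and *spt3*+, whose products contact the TATA-binding protein, -0.03 and -0.31. *tra1*+, the gene of the activator-binding subunit, had -0.03, the adaptor genes *ada2*+ and *ngg1*+ 0.07 and -0.17, and *sgf29*+, whose budding yeast counterpart binds methylated H3 lysine 4, 0.15. The genes of the 5 subunits that SAGA shares with TFIID, *taf5*+, *taf6*+, *taf9*+, *taf10*+ and *taf12*+, lay between -0.09 and 0.26.

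Transcripts of the Set1 complex other than *ash2*+ were all within 2-fold, as were most genes, with 6.95% of all measured genes past it. The 7 genes had a median log2 ratio of 0.15 and a range of -0.34 to 0.87. The methyltransferase gene *set1*+ had a log2 signal of 8.96 in *sgf73*Δ and 9.29 in *ash2*Δ. *swd2*+ had 9.97 in *sgf73*Δ and 9.10 in *ash2*Δ, and *sdc1*+, whose product binds next to Ash2, had 11.01 in *sgf73*Δ and 10.46 in *ash2*Δ, ratios of 1.83 and 1.47. The log2 ratios of *swd1*+ and *swd3*+, WD-repeat subunits, were 0.33 and 0.04, and those of *shg1*+ and *spf1*+ were 0.15 and -0.04. Among 8 genes around H2B ubiquitin and H3K4 demethylation, all 8 had lower signals in *sgf73*Δ, with a median of -0.34. Past 2-fold was 1 of them (12.5%, beside 3.02% of all genes lower past 2-fold). That gene, *brl2*+, encodes an H2B ubiquitin ligase subunit and had 10.38 in *sgf73*Δ and 11.60 in *ash2*Δ, 2.32-fold lower in *sgf73*Δ. The other 6 deletions lay at 10.03 to 10.54, so that it was *ash2*Δ that stood apart. Its ligase partner *brl1*+ had a log2 ratio of -0.05 and the conjugating enzyme gene *rhp6*+ -0.08. Beside 6.95% of all measured genes, 4 further lists held none past 2-fold. These were the histone genes (12 measured), heterochromatin and deacetylase factors (32), chromatin remodelling factors (30), and Mediator and TFIID subunits (30). The largest differences there were 0.96 for *hst2*+, a sirtuin deacetylase gene, 0.95 for *med7*+, 0.79 for *pcf2*+, a chromatin assembly factor gene, and -0.28 for the histone H4 gene *hhf3*+.

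**Figure D1:**
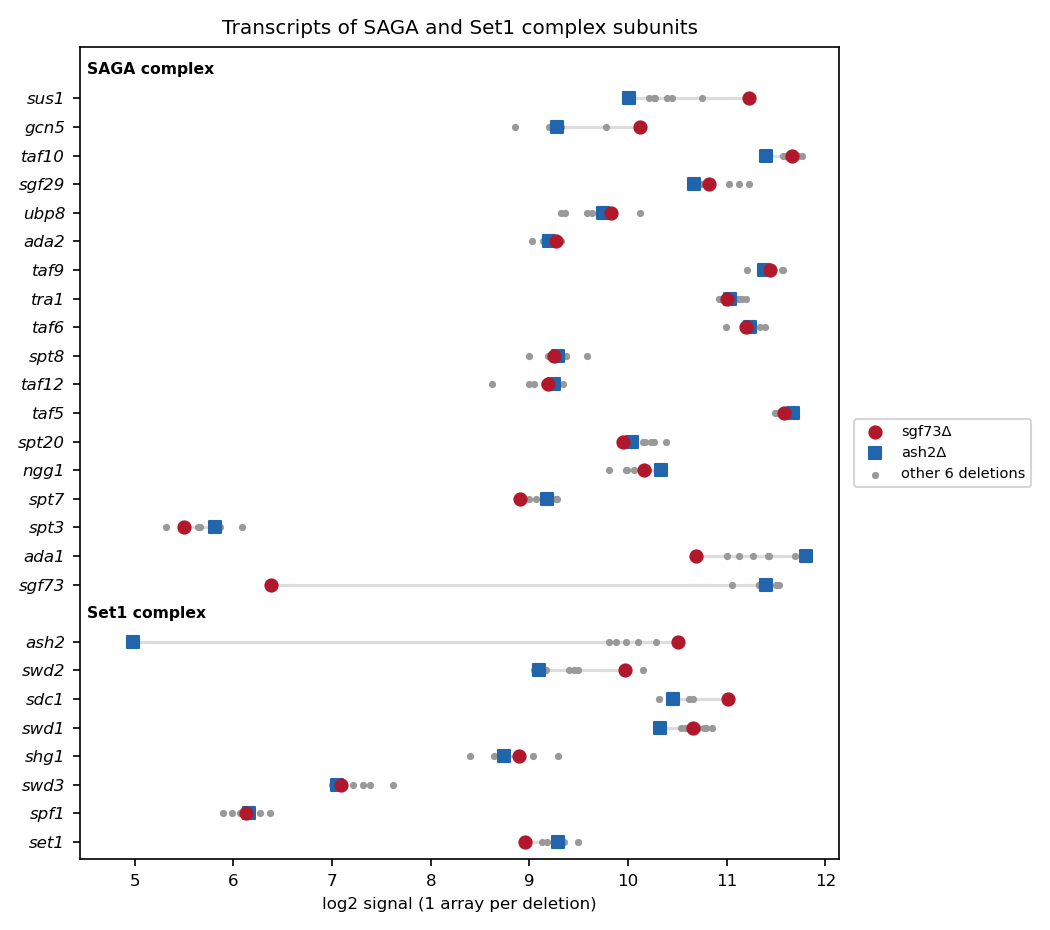
Log2 signals of the 18 SAGA genes and 8 Set1 complex genes measured, in *sgf73*Δ (red circle), *ash2*Δ (blue square) and the other 6 deletions (grey points), 1 array per deletion, with the genes of a complex ordered by the ratio of *sgf73*Δ over *ash2*Δ. Only *sgf73*+ and *ash2*+ lie far from the grey points, each in its own deletion, and *sus1*+ and *ada1*+ are the other genes past 2-fold.

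Most P cell genes and several genes of the pheromone response were past 2-fold higher in *sgf73*Δ. P cells secrete P-factor and respond to M-factor from M cells, and starvation turns this system on through the transcription factor Ste11. The P-factor gene *map2*+ had a log2 signal of 13.65 in *sgf73*Δ and 6.96 in *ash2*Δ, 103-fold higher in *sgf73*Δ, the highest ratio of all measured genes. The other 6 deletions lay far apart for *map2*+, high in *SPBC2A9.02*Δ (13.50) and *SPAC27D7.08c*Δ (12.72) but at 7.11 to 7.83 in the remaining 4, so that *ash2*Δ lay with the low ones. The gene of the M-factor receptor, *map3*+, had 10.50 in *sgf73*Δ and 7.71 in *ash2*Δ (6.89-fold higher), and *map1*+, a transcription factor of P cell genes, had 10.42 in *sgf73*Δ and 7.73 in *ash2*Δ (6.48-fold higher). *map4*+, an adhesin gene of P cells, had 11.53 in *sgf73*Δ and 10.31 in *ash2*Δ (2.32-fold higher). The pair *SPBC2A9.02*Δ and *SPAC27D7.08c*Δ was also high for *map1*+ (10.25 and 10.58), *map3*+ (10.44 and 9.50) and *map4*+ (11.89 and 10.98). *meu29*Δ had 9.59 for *map1*+ and 9.34 for *map3*+. Of the 5 P cell genes, 4 were thus past 2-fold higher (80%, beside 3.93% of all genes), with a median log2 ratio of 2.70. The protease gene *sxa1*+ had 12.75 in *sgf73*Δ and 12.83 in *ash2*Δ.

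The M cell genes did not show such a pattern. Of 8 measured, 1 was past 2-fold higher (12.5%, beside 3.93% of all genes) and 0 lower (beside 3.02%), with a median of 0.32. With median scaling or quantile normalization *num1*+, the gene of a dynein anchor, was past 2-fold lower. The M-factor gene *mfm2*+ had 9.20 in *sgf73*Δ and 7.93 in *ash2*Δ, a ratio of 2.42, and the other M-factor genes *mfm1*+ and *mfm3*+ had log2 ratios of 0.90 and -0.48. The P-factor receptor gene *mam2*+ had a log2 ratio of 0.79 and the M-factor exporter gene *mam1*+ one of -0.18. The difference between the lists of the P cell and M cell genes was not tested. A change of transcript level per cell and a change in the share of cells that express a gene cannot be told apart in such bulk samples.

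Of 19 genes listed as mating genes of both cell types, 8 were past 2-fold higher (42.1%, beside 3.93% of all genes). In the lower direction it was 1 (5.26%, beside 3.02%), and the median was 0.58 with 5 genes below 0. Among the 8 was *spo5*+, a meiotic RNA-binding protein gene that is also counted among the meiosis genes below. *ste11*+ had a log2 signal of 12.64 in *sgf73*Δ and 10.54 in *ash2*Δ, 4.29-fold higher in *sgf73*Δ. Here too *SPBC2A9.02*Δ (12.85) and *SPAC27D7.08c*Δ (12.89) were high, and the remaining 4 lay at 9.83 to 11.51. *mei2*+, whose product is the RNA-binding switch into meiosis, had 11.63 in *sgf73*Δ and 9.05 in *ash2*Δ (5.99-fold higher), with *ash2*Δ below all other deletions. Above *sgf73*Δ for *mei2*+ lay *SPBC2A9.02*Δ (12.58) and *SPAC27D7.08c*Δ (12.37). Several genes of the signalling chain behind the pheromone receptor were also past 2-fold. The G protein alpha subunit gene *gpa1*+ had 11.67 in *sgf73*Δ and 9.84 in *ash2*Δ, its regulator *rgs1*+ had 9.98 in *sgf73*Δ and 7.68 in *ash2*Δ, and *ste6*+, the gene of the Ras1 exchange factor, had 9.71 in *sgf73*Δ and 7.31 in *ash2*Δ. *ste4*+, the gene of an adaptor of the MAP kinase cascade, had 10.80 in *sgf73*Δ and 8.88 in *ash2*Δ. The MAP kinase gene *spk1*+ at the end of the cascade had 12.27 in *sgf73*Δ and 8.56 in *ash2*Δ, a 13.0-fold difference, and *sgf73*Δ was above all other deletions. *SPBC2A9.02*Δ (11.77), *SPAC27D7.08c*Δ (11.35) and *meu29*Δ (10.56) were also high for *spk1*+, and the remaining deletions lay at 8.32 to 9.45. The kinases above Spk1 in the cascade were closer, with log2 ratios of 0.58 for *byr1*+ and -0.37 for *byr2*+, and *ras1*+ had 0.24. The exception in the lower direction was *rep1*+, a transcription factor gene of premeiotic S phase, with 7.38 in *sgf73*Δ and 8.49 in *ash2*Δ (2.16-fold lower). Outside the lists, *dni2*+ and *dni1*+, which encode claudin-like proteins of cell fusion, were 11.5-fold and 2.84-fold higher in *sgf73*Δ. For both the *ash2*Δ signal was below all other deletions, while *SPAC27D7.08c*Δ and *SPBC2A9.02*Δ were above *sgf73*Δ. *dni2*+ had 10.07 in *sgf73*Δ, 11.29 in *SPAC27D7.08c*Δ, 10.98 in *SPBC2A9.02*Δ and 7.22 to 8.13 in the remaining 4, beside 6.55 in *ash2*Δ.

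**Figure D2:**
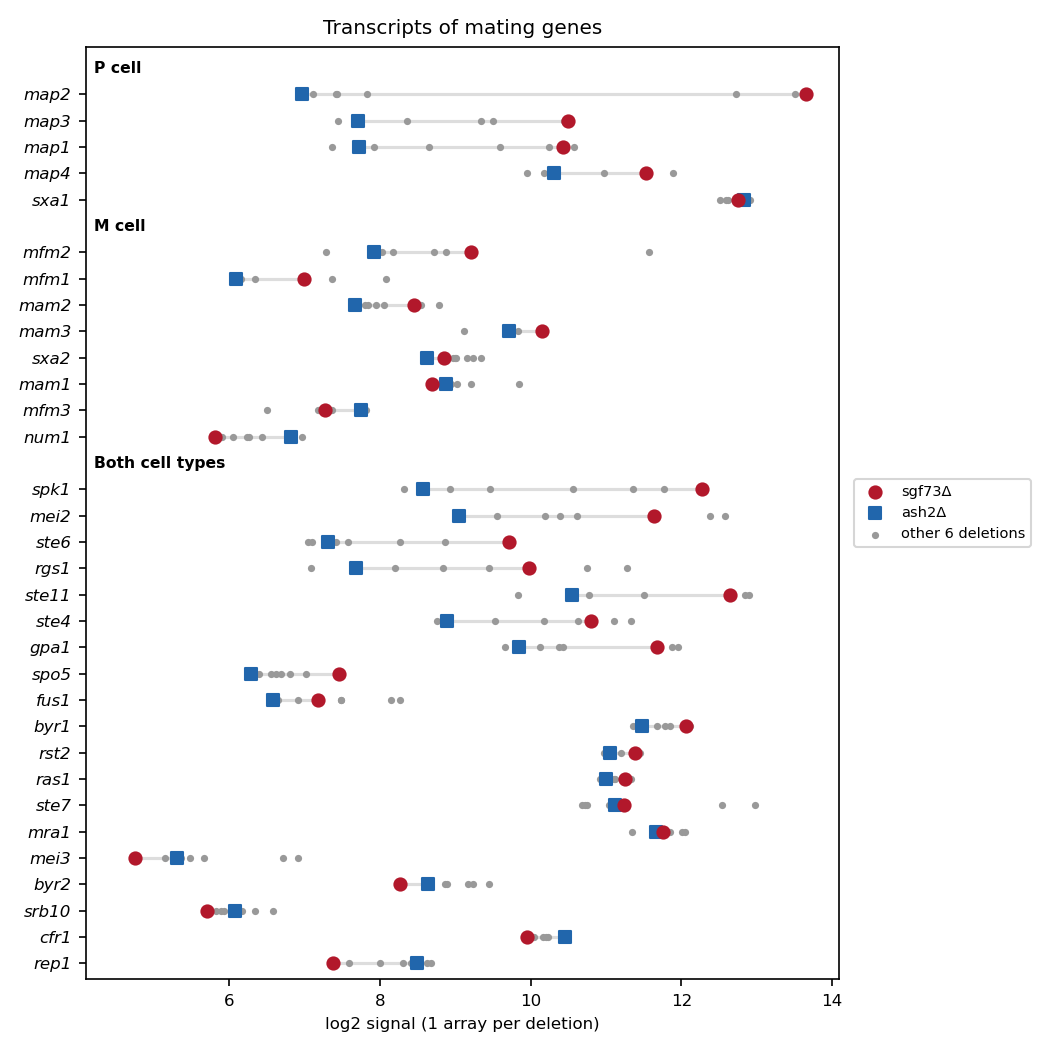
Log2 signals of 5 P cell genes, 8 M cell genes and 19 mating genes of both cell types in *sgf73*Δ (red circle), *ash2*Δ (blue square) and the other 6 deletions (grey points), 1 array per deletion. The P cell genes *map1*+ to *map4*+ and the group from *spk1*+ to *spo5*+ have the red circle to the right of the blue square by more than 2-fold. For *map2*+ and *ste11*+ a pair of grey points lies beside the red circle, and for *mei2*+, *gpa1*+, *rgs1*+ and *ste4*+ a pair lies to its right.

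Meiosis and spore genes were partly higher. Of 30 measured, 6 were past 2-fold higher (20.0%, beside 3.93% of all genes) and 0 lower (beside 3.02%), with a median of 0.32. The spore wall gene *isp3*+ had a log2 signal of 11.68 in *sgf73*Δ and 7.46 in *ash2*Δ, 18.6-fold higher in *sgf73*Δ, and the other 6 deletions ranged between 5.96 and 10.28. The meiotic septin genes *spn5*+, *spn6*+ and *spn7*+ were 3.56-fold, 4.60-fold and 2.18-fold higher, and *sgf73*Δ was above all other deletions for each of them. The septin genes of vegetative cells, *spn1*+ to *spn4*+, lay between -0.50 and 0.16 in log2 ratio. *rec12*+, the gene of the enzyme that makes meiotic DNA breaks, had 9.26 in *sgf73*Δ and 8.10 in *ash2*Δ (2.24-fold higher), and the meiotic RNA-binding protein gene *spo5*+ 7.45 in *sgf73*Δ and 6.28 in *ash2*Δ (2.25-fold higher). *mei4*+, the gene of the transcription factor of middle meiosis, had 7.29 in *sgf73*Δ and 7.26 in *ash2*Δ. Of 127 measured genes named mug or meu for their rise in meiosis, 16 were past 2-fold higher (12.6%, beside 3.93% of all genes) and 4 lower (3.15%, beside 3.02%), with a median of 0.15. *mug14*+ had 14.09 in *sgf73*Δ and 9.41 in *ash2*Δ, 25.7-fold higher, and was about as high in *SPBC2A9.02*Δ (14.20) and *SPAC27D7.08c*Δ (13.87). The signals of *mug103*+ and *mug177*+ were not above background in *ash2*Δ, so that they were at least 3.56-fold and 2.29-fold higher in *sgf73*Δ. *mug108*+ was the lowest of the group, with a log2 signal of 7.49 in *sgf73*Δ and 6.41 times as much signal in *ash2*Δ.

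Sugar genes split in both directions. Of 18 genes of sugar uptake and glucose repression, 4 were past 2-fold higher (22.2%, beside 3.93% of all genes) and 2 lower (11.1%, beside 3.02%), and the median was -0.09. The gluconeogenic enzyme gene *fbp1*+, a classic glucose-repressed gene, had a log2 signal of 12.98 in *sgf73*Δ and 8.67 in *ash2*Δ, 19.8-fold higher in *sgf73*Δ. Its signal in *sgf73*Δ was above those of *SPBC2A9.02*Δ (11.12) and *SPAC27D7.08c*Δ (11.37), and the remaining 4 deletions lay at 8.19 to 8.86. The transporter gene *ght3*+ had 11.52 in *sgf73*Δ and 6.18 in *ash2*Δ (40.4-fold higher), *ght1*+ had 12.68 in *sgf73*Δ and 8.73 in *ash2*Δ (15.4-fold higher), and *ght4*+ had 11.98 in *sgf73*Δ and 10.09 in *ash2*Δ (3.72-fold higher). *ght3*+ was also high in *SPBC2A9.02*Δ (12.06) and *SPAC27D7.08c*Δ (10.67), and *ght4*+ was high in the same pair of deletions (12.13 and 12.33). *ght1*+ was high in this pair too (10.36 and 10.68), beside 7.96 to 9.05 in the remaining 4, with *sgf73*Δ above all other deletions. The abundant hexose transporter gene *ght5*+ had 13.67 in *sgf73*Δ and 13.61 in *ash2*Δ. The invertase gene *inv1*+, also known as glucose-repressed, ran the other way, with 7.73 in *sgf73*Δ and 11.87 in *ash2*Δ, 17.6-fold lower in *sgf73*Δ. The other 6 deletions lay between 9.18 and 13.23, all above *sgf73*Δ. The maltase gene *mal1*+ had 7.53 in *sgf73*Δ and 9.03 in *ash2*Δ (2.82-fold lower). Regulators of glucose repression differed less, with log2 ratios of 0.20 for the repressor gene *scr1*+, 0.33 for the activator gene *rst2*+, -0.34 and -0.01 for the corepressor genes *tup11*+ and *tup12*+, and -0.87 for *pka1*+, the gene of the protein kinase A catalytic subunit.

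The galactose genes were split as well. *mel1*+, which encodes a secreted alpha-galactosidase, had 10.09 in *sgf73*Δ and 6.50 in *ash2*Δ (a log2 ratio of 3.58), and *gal7*+, the uridylyltransferase gene, had 8.01 in *sgf73*Δ and 11.08 in *ash2*Δ (8.41-fold lower). Neither gene overlapped the other 6 deletions in *sgf73*Δ, which was above them for *mel1*+ and below them for *gal7*+. *gal1*+ and *gal10*+, which encode galactokinase and an epimerase, had log2 ratios of -0.67 and -0.69. Of 8 glycerol genes, 1 was past 2-fold lower (12.5%, beside 3.02% of all genes) and 0 higher (beside 3.93%). This was the dihydroxyacetone kinase gene *dak2*+, with 9.96 in *sgf73*Δ and 12.13 in *ash2*Δ (4.51-fold lower), and its relative *dak1*+ had a log2 ratio of 0.76. Of 13 glycolysis and fermentation genes, 12 had lower signals in *sgf73*Δ, with a median of -0.15, and 1 was past 2-fold lower (7.69%, beside 3.02% of all genes). This was the alcohol dehydrogenase gene *adh4*+ with 11.00 in *sgf73*Δ and 12.70 in *ash2*Δ (3.26-fold lower). The main alcohol dehydrogenase gene *adh1*+ had a log2 ratio of -0.01.

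Several genes of nitrogen starvation were lower in *sgf73*Δ, while *isp3*+, also counted among the meiosis and spore genes, was higher. Of 15 measured, 6 were past 2-fold lower (40.0%, beside 3.02% of all genes) and 1 higher (6.67%, beside 3.93%), with a median of -0.69. The oligopeptide transporter gene *isp4*+ had 9.65 in *sgf73*Δ and 11.91 in *ash2*Δ (4.81-fold lower), the proline permease gene *put4*+ 10.29 in *sgf73*Δ and 12.33 in *ash2*Δ (4.12-fold lower), and the ammonium transporter gene *amt1*+ 9.78 in *sgf73*Δ and 11.63 in *ash2*Δ (3.62-fold lower). The amino acid permease genes *isp5*+ and *per1*+ were 3.57-fold and 3.56-fold lower, and *isp7*+, an oxygenase gene, was 2.64-fold lower. For 9 of the 15 genes the *sgf73*Δ signal was below all other 6 deletions, as it was for 19.2% of all genes. *isp5*+ was low in both strains, with 8.90 in *sgf73*Δ and 10.74 in *ash2*Δ beside 11.57 to 13.54 in the other 6. The GATA factor gene *gaf1*+, a regulator of this response, had a log2 ratio of -0.18. The 3 neighbouring genes of chromosome I, *urg1*+, *urg2*+ and *urg3*+, named for their regulation by uracil, were 3.69-fold, 4.04-fold and 2.95-fold lower in *sgf73*Δ. *urg2*+ had 11.96 in *sgf73*Δ and 13.98 in *ash2*Δ, and the other 6 deletions lay at 13.43 to 13.98.

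Stress response genes past 2-fold were all lower in *sgf73*Δ, and most of the list was within 2-fold. Of 32 measured, 8 were past 2-fold lower (25.0%, beside 3.02% of all genes) and 0 were past 2-fold higher (beside 3.93%). The median was -0.37, and 25 genes were below 0, as were 1288 of all 2878 measured genes. The largest difference was in *pyp2*+, the gene of a phosphatase that acts on the stress MAP kinase Sty1, with 7.82 in *sgf73*Δ and 9.72 in *ash2*Δ (3.74-fold lower). *srk1*+, the gene of a kinase bound by Sty1, had 8.73 in *sgf73*Δ and 10.52 in *ash2*Δ (3.45-fold lower), the small heat shock protein gene *hsp16*+ 11.55 in *sgf73*Δ and 13.27 in *ash2*Δ (3.29-fold lower), and the glutathione S-transferase gene *gst2*+ 11.37 in *sgf73*Δ and 12.91 in *ash2*Δ (2.91-fold lower). *obr1*+, the drug efflux gene *bfr1*+, the nuclear envelope protein gene *ish1*+ and the catalase gene *ctt1*+ were 2.77-fold, 2.73-fold, 2.61-fold and 2.08-fold lower. *sgf73*Δ was below all other deletions for *pyp2*+, *hsp16*+, *gst2*+ and *bfr1*+, and inside their range for *srk1*+, *obr1*+, *ish1*+ and *ctt1*+. The kinase genes *sty1*+ and *wis1*+ had log2 ratios of -0.09 and -0.04, the transcription factor gene *atf1*+ -0.58, and the abundant stress genes *hsp9*+ and *gpx1*+ 0.19 and 0.21. The heat shock list went both ways. Its 18 measured genes had a median of 0.25, and the chaperone genes *hsp90*+ and *mas5*+ lay at 0.66 and 0.83. Past 2-fold were *hsp16*+ and the Hsp70 gene *ssa1*+ (2.47-fold lower), 11.1% of the list beside 3.02% of all genes lower past 2-fold.

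**Figure D3:**
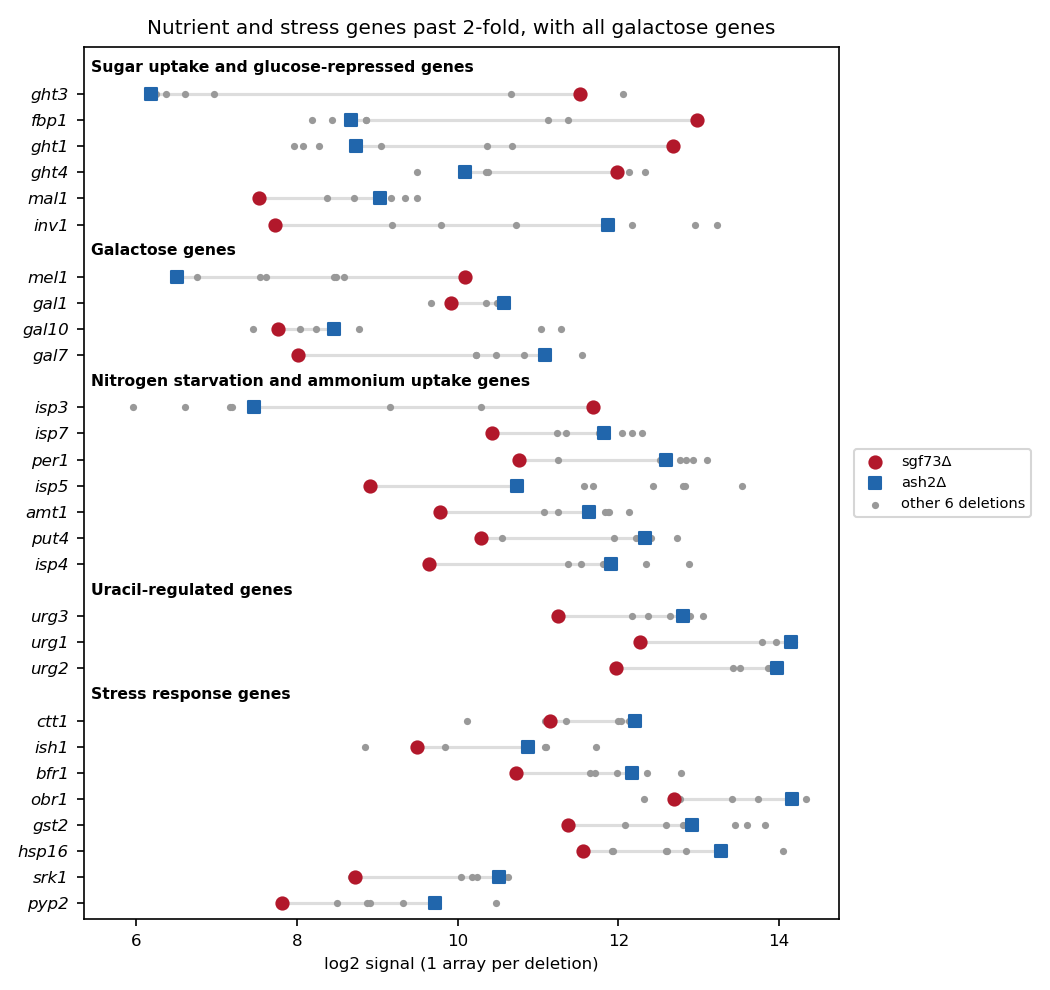
Log2 signals of the sugar, nitrogen and stress genes past 2-fold, of all 4 galactose genes and of the 3 urg genes in *sgf73*Δ (red circle), *ash2*Δ (blue square) and the other 6 deletions (grey points), 1 array per deletion. *ght3*+, *fbp1*+, *ght1*+, *ght4*+, *mel1*+ and *isp3*+ have the red circle to the right, and the other genes have it to the left, mostly at or beyond the lowest grey point.

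Iron genes were split, and the zinc and vitamin genes named here as past 2-fold were lower. Of 15 iron genes, 1 was higher past 2-fold (6.67%, beside 3.93% of all genes) and 2 were lower (13.3%, beside 3.02%), with a median of 0.29. *str1*+, a siderophore transporter gene, had 10.85 in *sgf73*Δ and 8.84 in *ash2*Δ (4.02-fold higher), with *ash2*Δ below all other deletions. The iron permease gene *fip1*+ had 8.03 in *sgf73*Δ and 9.58 in *ash2*Δ (2.92-fold lower), both below the other 6, and the low-affinity transporter gene *fet4*+ was 3.18-fold lower. The iron regulator genes *fep1*+ and *php4*+ had log2 ratios of -0.51 and 0.39. The zinc transporter gene *zrt1*+ was 2.06-fold lower, the thiamine synthesis gene *thi2*+ 3.31-fold lower and the biotin transporter gene *vht1*+ 3.83-fold lower, with 11.97 in *sgf73*Δ and 13.91 in *ash2*Δ. *thi2*+ was the only gene past 2-fold among 9 measured phosphate and thiamine genes (11.1%, beside 3.02% of all genes lower). The probe set that the array annotation names *pho1*+ had 11.90 in *sgf73*Δ and 14.26 in *ash2*Δ, 5.13-fold lower in *sgf73*Δ. Its gene identifier now belongs to *nc-pho1*, a non-coding RNA beside the acid phosphatase gene, and which transcript it detects was not tested.

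The lists of growth genes held few genes past 2-fold. Of 47 amino acid biosynthesis genes, 35 were below 0 and 12 above, with a median of -0.32. Over all measured genes, 1288 were below 0 and 1590 above. Among the 47, 4 were past 2-fold lower (8.51%, beside 3.02% of all genes) and 0 higher (beside 3.93%). *gdh2*+, a glutamate dehydrogenase gene, had 11.43 in *sgf73*Δ and 12.71 in *ash2*Δ (2.44-fold lower), and the others were *his4*+, *lys1*+ and *arg4*+, of which *arg4*+ was within 2-fold with quantile normalization. Of 33 genes of the respiratory chain and ATP synthase, 31 were above 0, with a median of 0.29 and a maximum of 0.63 at *qcr9*+, and 0 were past 2-fold. Of 41 ribosome biogenesis genes, 37 were above 0, with a median of 0.37, and 1 was past 2-fold higher (2.44%, beside 3.93% of all genes). This was *lsg1*+ with 10.52 in *sgf73*Δ and 8.53 in *ash2*Δ (3.97-fold higher). It was placed in the list by its symbol, and whether its product acts in ribosome biogenesis was not checked. The 119 cytosolic ribosomal protein genes had a median of 0.08, beside 0.05 over all genes, and 104 of them were above 0 (84 with median scaling), with 0 past 2-fold and *rpl4101*+ at 0.85. The 28 proteasome genes had a median of -0.18 and a range of -0.62 to 0.21.

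The cell cycle lists held few called genes, beside 3.93% higher and 3.02% lower past 2-fold over all measured genes. The shares were 1.85% higher and 1.85% lower for DNA replication, and 2.56% higher and 5.13% lower for the spindle and kinetochore. For repair 2.56% were higher, and for G1/S genes 5.56% were lower. Of 54 DNA replication genes, *rad2*+, which encodes the flap endonuclease, was 2.12-fold higher, and *abp2*+, which encodes a protein that binds replication origins, was 4.83-fold lower, with 7.32 in *sgf73*Δ and 9.59 in *ash2*Δ. *ash2*Δ was above all other deletions for *abp2*+. Its neighbour *cnp3*+, the CENP-C gene of the kinetochore, had 7.91 in *sgf73*Δ and 9.72 in *ash2*Δ (3.49-fold lower), with *sgf73*Δ below and *ash2*Δ above the other 6. Among 39 genes of the spindle and kinetochore the others past 2-fold were *spc25*+ (2.05-fold higher) and *dad1*+ (2.56-fold lower), and among 39 repair genes it was *mre11*+ (2.12-fold higher). With quantile normalization *spc25*+, *mre11*+ and *rad2*+ were within 2-fold, and *spc25*+ also with median scaling. *rmi1*+, whose product works with the RecQ helicase in the dissolution of recombination intermediates, had 8.42 in *sgf73*Δ and 5.47 in *ash2*Δ, 7.73-fold higher, and was above the other 6 deletions in *sgf73*Δ and below them in *ash2*Δ. Of 18 G1/S genes, the MBF subunit gene *res2*+ was 2.56-fold lower. Of 31 contractile ring and septation genes, 0 were past 2-fold. The 7 cell separation genes had the lowest median of all 38 lists, -0.73, with 0 past 2-fold, and *eng1*+, a glucanase gene that cleaves the septum, had 10.32 in *sgf73*Δ and 11.21 in *ash2*Δ.

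**Figure D4:**
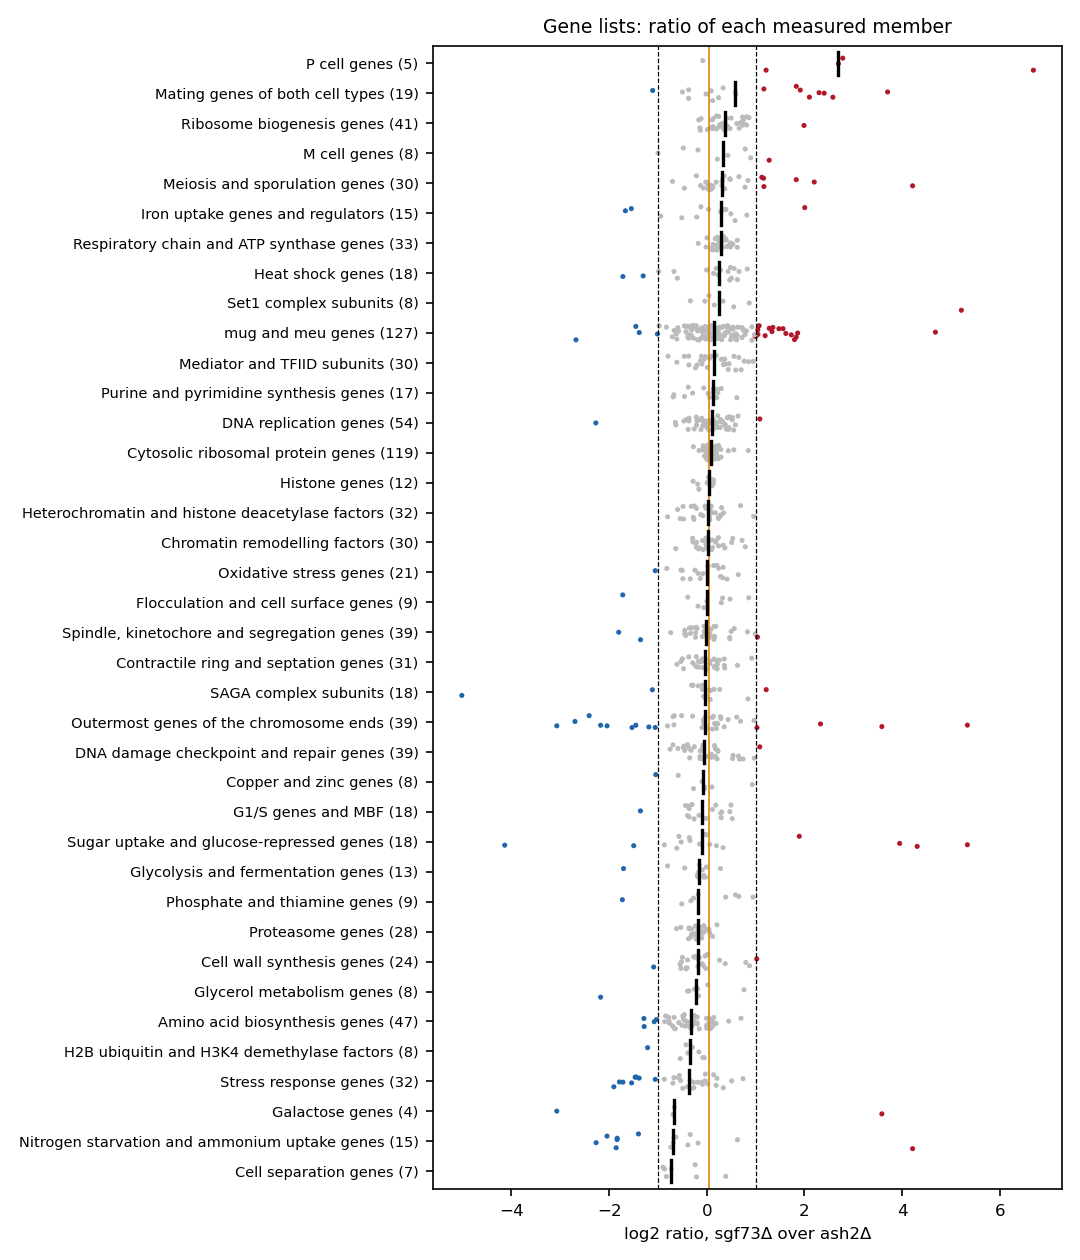
The log2 ratio of *sgf73*Δ over *ash2*Δ of each measured member (points, red or blue past 2-fold) and the median (black bar) of 38 gene lists, with the number measured in parentheses, dashed lines at 2-fold and an orange line at the median of all measured genes, 0.05. The medians run from 2.70 for the P cell genes to -0.73 for the cell separation genes, and the galactose, sugar and chromosome end lists have points past 2-fold on both sides.

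Position along the chromosomes was looked at in 2 ways. Of 39 measured genes among the outermost 30 protein-coding genes at each chromosome end, 4 were higher past 2-fold (10.3%, beside 3.93% of all genes) and 9 lower (23.1%, beside 3.02%), with a median of -0.03. These were *ght3*+, *mel1*+, *pcm2*+ and *sen54*+ (within 2-fold with median scaling or quantile normalization) in the higher direction, and *gal7*+, *cao2*+, *aes1*+, *dak2*+, *put4*+, *are2*+, *say1*+, *grt1*+ and *ctt1*+ in the lower. *cao2*+, a copper amine oxidase-like gene, had 9.54 in *sgf73*Δ and 12.24 in *ash2*Δ (6.49-fold lower), and *aes1*+ 11.35 in *sgf73*Δ and 13.76 in *ash2*Δ (5.31-fold lower). Many chromosome end genes had no named probe set, since only 39 of the 180 genes listed could be measured. Called genes of the same direction that lie next to each other made 11 runs with 25 genes, in a gene order with 1675 neighbouring pairs both measured. Whether so many runs would arise without regard to position was not tested. The runs of 3 were *urg2*+, *urg3*+ and *urg1*+, all lower, *dni1*+, *hem4*+ and *spk1*+, all higher, and *mei2*+, *omt2*+ and *apc14*+, all higher. *omt2*+ had 11.35 in *sgf73*Δ and 9.57 in *ash2*Δ, and *apc14*+, an anaphase-promoting complex gene, 9.74 in *sgf73*Δ and 7.66 in *ash2*Δ. Of the pairs, *pcm2*+ with *mel1*+ and *dot2*+ with *mug166*+ (within 2-fold with median scaling) were higher. The pairs *isp5*+ with *mmf2*+, *car1*+ with *fet4*+, *exg3*+ with *rep1*+, *cnp3*+ with *abp2*+, *brl2*+ with *sec8*+, and *gst2*+ with *alr1*+ were lower. For *sec8*+, an exocyst gene beside *brl2*+, both arrays stood apart, with 9.20 in *sgf73*Δ and 10.63 in *ash2*Δ beside 9.49 to 9.78 in the other 6.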

How the data were processed

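Affymetrix Yeast Genome 2.0 arrays were hybridised with biotinylated cRNA of total RNA, 1 array per strain. The authors deposited log2 signals of 10928 probe sets per array. MAS5 is named in the submitters' processing notes, without a version or a role. The sources used here give neither its scaling target nor detection calls. The log2 signals were used as deposited. Entrez identifiers of the array annotation were matched to the genes of ASM294v3, which served only for names and gene order, giving 2917 probe sets of 2899 *S. pombe* genes. 14 genes had more than 1 probe set, and of these a probe set unique to the gene was preferred, or else the brightest. Left out were 5177 probe sets without a symbol and 20 with several.

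The 2601 *S. cerevisiae* probe sets of each array set its background, at their 95th percentile, which was 39.2 signal units in *sgf73*Δ and 39.3 in *ash2*Δ. Lower signals were raised to it before ratios were taken, and genes at background on both arrays were not measured. Ratios with a raised signal are lower bounds and were written as "at least". The threshold was 2-fold. Each genotype had 1 array, whose number limits the precision, and no p-value was computed.

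The members and the 38 gene lists, 1 of them made from gene order, were chosen with earlier results of these data known. The set of named genes held *sgf73*+ and *ash2*+, all SAGA and Set1 complex genes, and the 15 highest and 15 lowest ratios. It also held list members past 2-fold, or else the largest ratio of the list, and neighbouring called genes. Not all of the set is described above. Left out were, for example, *ppk33*+ (8.45-fold higher), *aca1*+ (4.34-fold lower), *rsv2*+ (3.76-fold lower) and *cbf12*+ (3.30-fold lower). Other names, such as members within 2-fold given for contrast, were chosen after their values were seen. Alternatives changed the scaling (median or quantile), the background (no floor, both arrays above it, or its 99th percentile), the pseudocount (50 signal units), the probe sets (their mean) or the threshold (3-fold or 1.5-fold). The ratio step was tested on simulated data. Promoter motifs were not analysed here. Python 3.11.15, numpy 2.4.6, pandas 2.3.3 and matplotlib 3.10.9 were used.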

Additional observations from a re-analysis of the deposited data

Results flagged for a closer look

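A reporter control probe set, which belongs to no comparison above and whose target the sources used here do not name, had a log2 signal of 12.90 in *sgf73*Δ and 13.33 in *ash2*Δ. It is given because it lay far above its level in the wild type array, 4.38, which was not above the background of 5.26 there. The other 6 deletions lay between 12.18 and 13.74, so that the signal was present on all 8 deletion arrays and does not separate *sgf73*Δ from *ash2*Δ. Outlying arrays within a group were not looked for, since each genotype had 1 array.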

How the results depend on the processing

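No paired analysis was possible because each genotype had 1 array. Values were read as moved where they shifted by more than 0.14 log2 units, the SD of the log2 ratios between those labelled *pab1*Δ and *sec65*Δ, the closest arrays, and counts where they shifted by more than 1.5 times. Under the 7 alternatives with the threshold at 2-fold, between 86 and 119 genes were higher and between 72 and 96 lower, beside 113 and 87, and the fewest came with the pseudocount of 50 signal units. Median scaling gave 103 higher and 96 lower, of which 190 were among the 200, and quantile normalization 97 and 92, of which 181 were. At 3-fold there were 39 higher and 30 lower genes, 69 in all, and at 1.5-fold 342 and 246, 588 in all. None of the values of the 146 named genes changed its direction where it was past 2-fold, and 77 of 1018 values moved, 55 of them with the pseudocount. Of 266 medians of gene lists 5 moved. With the pseudocount, the median was 0.14 for iron genes, 0.42 for mating genes of both cell types, 0.16 for meiosis genes and 2.44 for P cell genes. With quantile normalization it was 2.54 for P cell genes. The pseudocount pulls ratios of dim genes towards 1 by its construction, and the cause of the shift with quantile normalization was not tested. The depth of a microarray limits dim genes most: 5 of the 200 genes past 2-fold rested on a signal at background.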

Other observations

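The wtf genes, a repeated family of spore-killing drivers, are a group outside the lists that was chosen after its values were seen. Of 16 measured, 5 were past 2-fold higher in *sgf73*Δ and 0 lower (3.93% and 3.02% over all genes), with a median log2 ratio of 0.82. Above 0 were 15 of the 16, and 1590 of all 2878 measured genes. *wtf21*+ had a log2 signal of 8.65 in *sgf73*Δ and 6.55 in *ash2*Δ, 4.28-fold higher in *sgf73*Δ, while the other 6 deletions lay between 8.08 and 8.90. *wtf9*+ had 9.15 in *sgf73*Δ and 7.74 in *ash2*Δ, with the other 6 at 8.74 to 9.19. *wtf20*+ had 7.56 in *sgf73*Δ and was not above background in *ash2*Δ, at least 4.79-fold higher. For 13 of the 16 genes the *ash2*Δ signal was below all other 6 deletions, as it was for 18.4% of all genes. The *sgf73*Δ signal was above all 6 for 0 of the 16 and below all 6 for 2, *wtf17*+ and *wtf22*+. The genes share sequence, so that their probe sets can detect several members and are not independent.

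The 39 measured genes of mitochondrial ribosomal proteins, also chosen after their values were seen, were above 0 in 37 cases, with a median of 0.31. Over all 2878 measured genes, 1590 were above 0. The 2 past 2-fold higher, beside 3.93% of all genes, were *mrpl22*+ and *mrpl28*+, with log2 ratios of 1.40 and 1.00. With median scaling or quantile normalization 1 of the 39 was past 2-fold. For 19 of the 39 the *sgf73*Δ signal was above all other 6 deletions (21.0% of all genes), and for 17 the *ash2*Δ signal was below them (18.4% of all genes).

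Among the probe sets without a single gene symbol, 2244 of 5197 were measured, and 108 were past 2-fold higher and 149 lower in *sgf73*Δ, 11.5% together. This share was 6.95% among the named genes. Their transcripts are not named here.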
